A study of Mus musculus with 4 samples.

Results

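Cux2, Rorb, Fezf2, Bcl11b, Tbr1, Tle4, Foxp2 and Sox5, 7 transcription factors and a co-repressor that mark the layers and projection types of the cortex, were followed in nuclei of the adult mouse cortex, as 8 of the 32285 genes in the deposited count tables. They were taken by symbol, and every one was detected in every lane. The study asked what a course of the antipsychotic risperidone in adolescence leaves behind in the adult cortex. Wild-type C57BL/6J mice received saline or risperidone at 4 mg/kg by daily intraperitoneal injection from postnatal day 22 for 21 days, and were killed at postnatal day 90. The labels give the washout as 43 days, which is shorter than the time these ages leave. Right hemicortices of several mice of both sexes were pooled, 1 pool per condition, the nuclei were sorted by DAPI, and each pool was run on 2 lanes of a droplet instrument. The lanes are therefore technical runs and each condition has n = 1. The pools were therefore compared without a test, and the intervals given below cover counting error only.

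Projection neurons of the cortex carry glutamate and send their axons to targets that differ by layer. Intratelencephalic (IT) neurons, found in most layers, project within the cortex and to the striatum, extratelencephalic (ET) neurons of layer 5 project to the brainstem and spinal cord, corticothalamic (CT) neurons of layer 6 project to the thalamus, and near-projecting (NP) and layer 6b neurons make up further deep-layer groups. During development these fates are set by transcription factors that repress each other, Fezf2 and Bcl11b (also called Ctip2) on the subcerebral side and Tbr1 on the corticothalamic side, with Sox5 delaying the subcerebral programme. Many of these genes remain switched on in adult neurons, where they serve as layer markers, and several are used outside the projection neurons as well.

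Saline lanes listed 29536 and 29986 nuclei, with medians of 3297 and 4049 unique molecular identifiers (UMIs, counted RNA molecules), and risperidone lanes listed 25983 and 23450 nuclei with medians of 5648 and 7766. Any pair of lanes shared between 160 and 221 nucleus barcodes. After removal of low-quality and doublet-like nuclei 96553 remained, of which 57276 fell into glutamatergic clusters. Clusters were built without the 8 genes and named from marker lists that do not contain them. Setting the classes from clusters, and the scores a cluster needed for a name, were choices made after the data were seen; classes set from the marker UMIs of each single nucleus had been planned, and left 48.3 and 44.3% of saline nuclei against 32.2 and 26.7% of risperidone nuclei without a class, next to 20.5 and 19.6% and 17.4 and 17.1% with clusters. Named glutamatergic subclasses were L2/3 IT (14958 nuclei), L4/5 IT (9257), L5 IT (4969), L5 ET (2459), L5/6 NP (999), L6 CT (6635), L6b (1249) and claustrum-type (1018). The L5 ET cluster had none of its own markers among its leading 10 genes and was named from its whole list. No cluster met the naming rule for L6 IT, and 15732 glutamatergic nuclei were left without a subclass, 32.9 and 33.6% of the glutamatergic nuclei in saline lanes against 20.5 and 20.8% in risperidone lanes. In L2/3 IT the pools also fell into different clusters: one held 2988 and 2892 nuclei of the saline lanes against 215 and 199 of the risperidone lanes, and another 171 and 235 against 3077 and 2756. RNA released by other nuclei was estimated, from 32 markers of non-neuronal cells, at 35.6 and 33.9% of the glutamatergic UMIs in saline lanes against 23.5 and 23.4% in risperidone lanes. The estimate is relative to the level of those markers over all nuclei of a lane. Risperidone lanes held more oligodendrocytes, microglia, endothelial and mural or fibroblast nuclei, but neither more astrocytes in both lanes nor more oligodendrocyte precursors. How far this unequal content moved the estimate, and the values after removal, was not tested. Both depth and the estimated share of other nuclei's RNA differed between the conditions. Values at equal depth and with that RNA taken out are therefore given beside several of the results they touch.

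Cux2, a homeobox gene of upper-layer neurons, lies on chromosome 5 at 121856366 to 122050102 (mm10, minus strand), and 94.8% of the gene is intron, which matters for nuclei because unspliced RNA is counted. Its level, in counts per total UMIs of a class, as CPM, was highest in the claustrum-type nuclei, at 919 and 801 CPM in saline and 725 and 766 CPM in risperidone lanes. L2/3 IT nuclei followed with 626 and 608 CPM in saline and 480.1 and 465 CPM in risperidone lanes, and L4/5 IT nuclei with 392 and 380.1 CPM in saline and 338 and 333 CPM in risperidone lanes. The lanes of these 3 subclasses did not overlap. Pvalb interneurons, at 348 and 337 CPM in saline and 279 and 258 CPM in risperidone lanes, lay below L4/5 IT within each pool, whereas L5 ET, L6 CT and L6b nuclei stayed between 19.0 and 38.5 CPM. In those 3 deep subclasses the UMIs expected from RNA of other nuclei exceeded the UMIs observed in every lane, so Cux2 was at background there.

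Rorb, a nuclear receptor known for layer 4, lies on chromosome 19 at 18930605 to 19111196 on the minus strand. Among glutamatergic subclasses it stood out in L4/5 IT, with 1113 and 1139 CPM in saline and 974 and 989.6 CPM in risperidone lanes, against 368 and 349 CPM in saline and 227 and 240.1 CPM in risperidone lanes in L5 IT. The L4/5 IT mean was 3.56 times that of L5 IT, the next named class in order, and the lanes were apart. Astrocytes exceeded both: 1849 and 1881 CPM in saline and 1979 and 2018 CPM in risperidone lanes. The lowest astrocyte lane lay above the highest L4/5 IT lane. Astrocytes held 12.5% of all Rorb UMIs and L4/5 IT nuclei 38.5%.

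**Figure D1:**
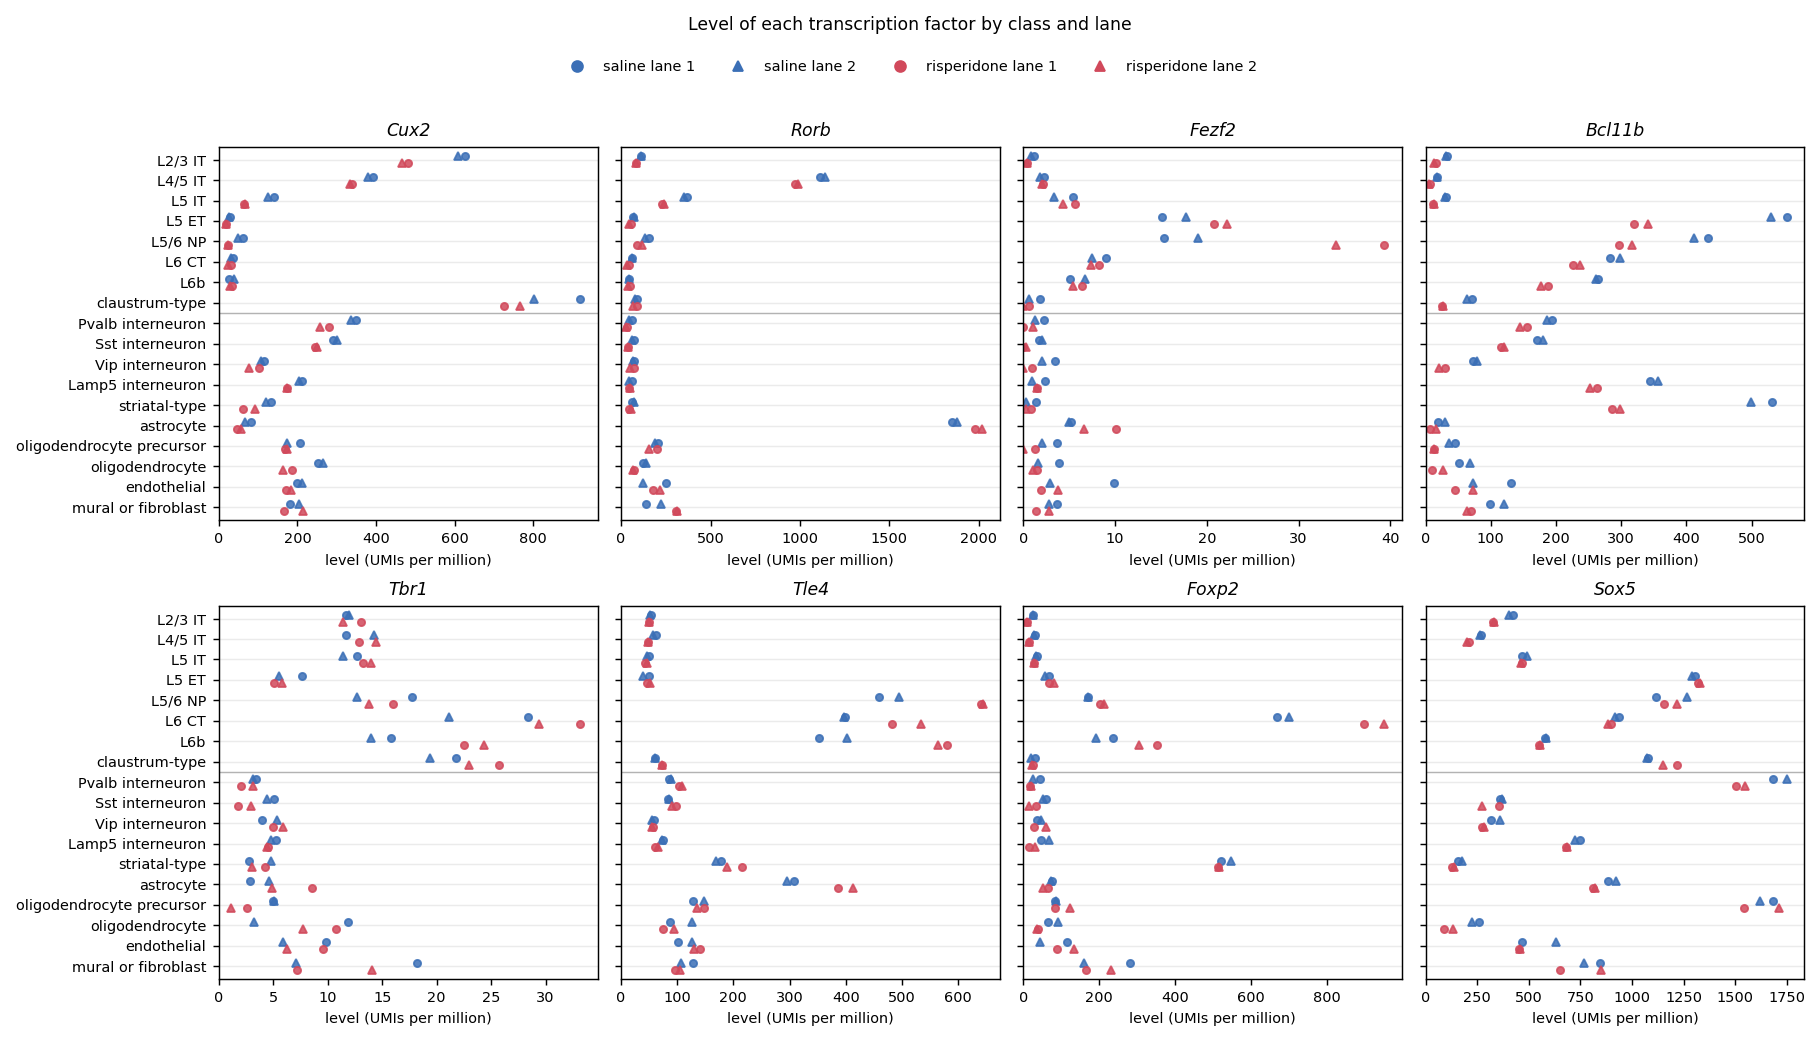
Level of each gene (horizontal axis, CPM, from the UMIs of the class; the range differs between panels) in the 8 glutamatergic subclasses above the grey line and 10 other classes below it, 1 point per lane. Circles and triangles are lanes 1 and 2 of saline (blue) and risperidone (red). Bcl11b has its red points to the left of its blue points in all 18 classes, in some of which RNA of other nuclei alone could give its level. Rorb is highest in astrocytes.

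Fezf2, the zinc finger gene needed for subcerebral identity, was scarce. It is a short gene (6.10 kb, chromosome 14 at 12342094 to 12348189, minus strand), and only 1902 Fezf2 UMIs were counted over all nuclei. L5/6 NP nuclei had 15.4 and 19.0 CPM in saline and 39.3 and 34.0 CPM in risperidone lanes, and L5 ET nuclei 15.1 and 17.8 CPM in saline and 20.8 and 22.2 CPM in risperidone lanes. These 2 subclasses overlapped each other, and L5 ET lay above L6 CT (7.42 to 9.01 CPM) in every lane. With classes of single nuclei L5 ET was the highest subclass. L2/3 IT nuclei stayed between 0.359 and 1.18 CPM.

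Bcl11b, a zinc finger gene acting downstream of Fezf2 in subcerebral neurons, lies on chromosome 12 at 107910403 to 108003602 on the minus strand. It was highest in L5 ET, with 554 and 529.6 CPM in saline and 320.1 and 341 CPM in risperidone lanes. Striatal-type nuclei, GABAergic projection neurons in which Bcl11b is also known to act, had nearly the same level: 531 and 499.7 CPM in saline and 286 and 298 CPM in risperidone lanes. L5/6 NP followed with 433 and 412 CPM in saline and 296 and 316 CPM in risperidone lanes, Lamp5 interneurons with 344 and 356 CPM in saline and 262 and 251 CPM in risperidone lanes, and L6 CT with 283 and 298 CPM in saline and 226 and 237 CPM in risperidone lanes. With the lanes of both pools together, all 18 pairs of neighbours in the order of named classes overlapped. Within each pool, L5/6 NP was apart from Lamp5 interneurons and these from L6 CT, while L5 ET and striatal-type lanes overlapped in saline and were apart in risperidone. In L2/3 IT, L4/5 IT and L5 IT the level was between 5.16 and 33.6 CPM, and the UMIs expected from RNA of other nuclei exceeded those observed in every lane.

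Tbr1, the T-box gene of corticothalamic neurons, is short as well (11.2 kb, chromosome 2 at 61802930 to 61814114, plus strand) and its levels were low. L6 CT nuclei led with 28.3 and 21.1 CPM in saline and 33.2 and 29.4 CPM in risperidone lanes, and claustrum-type nuclei had 21.8 and 19.4 CPM in saline and 25.7 and 22.9 CPM in risperidone lanes. L5 ET nuclei were lowest among the subclasses, at 7.67 and 5.54 CPM in saline and 5.06 and 5.83 CPM in risperidone lanes. In L2/3 IT, L4/5 IT and L5 IT nuclei Tbr1 ranged from 11.4 to 14.4 CPM, all under the lowest L6 CT lane.

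Tle4 encodes a co-repressor of the Groucho family, is found in corticothalamic neurons, and lies on chromosome 19 at 14448150 to 14598051 on the minus strand. L5/6 NP nuclei had 459 and 495 CPM in saline and 640.2 and 645 CPM in risperidone lanes, L6b nuclei 353 and 402 CPM in saline and 581 and 564 CPM in risperidone lanes, and L6 CT nuclei 399.7 and 397 CPM in saline and 483 and 534 CPM in risperidone lanes. Within each pool L5/6 NP lay above L6b and L6 CT, while L6b and L6 CT overlapped in the saline lanes. With classes of single nuclei L6 CT was the highest subclass. Astrocytes, at 307 and 296 CPM in saline and 386 and 412 CPM in risperidone lanes, lay below L6 CT within each pool. The other 5 subclasses lay between 39.5 and 72.6 CPM.

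Foxp2, a forkhead gene best known for its role in vocal learning, lies on chromosome 6 at 14901349 to 15441977 on the plus strand. It separated L6 CT from every other glutamatergic subclass: 668 and 701 CPM in saline and 899 and 952 CPM in risperidone lanes, next to 236 and 193 CPM in saline and 353 and 305 CPM in risperidone lanes in L6b. Striatal-type nuclei lay between these, at 522 and 548 CPM in saline and 514 and 515 CPM in risperidone lanes. The highest mean belonged to a cluster of 919 nuclei that was given no name, with 1808 and 1639.8 CPM in saline and 1924 and 1836 CPM in risperidone lanes. Its leading genes were B020031H02Rik, Npffr2, Chst9, Drd3 and Pbx3, with Foxp2 itself among the leading 10. A further unnamed cluster, of 299 nuclei, had 1228 and 1755 CPM in saline and 1417 and 1284 CPM in risperidone lanes and overlapped it.

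Sox5, an SRY-box gene that also acts in glial precursors, is the longest of the 8 genes (954 kb, chromosome 6 at 143828425 to 144781977, minus strand). Oligodendrocyte precursors had 1685 and 1622 CPM in saline and 1543 and 1714 CPM in risperidone lanes, and Pvalb interneurons 1681 and 1752 CPM in saline and 1504 and 1548 CPM in risperidone lanes, with overlapping lanes. L5 ET nuclei were highest among projection neurons, at 1306 and 1291 CPM in saline and 1321 and 1329 CPM in risperidone lanes, above L5/6 NP in every lane. L4/5 IT nuclei were lowest, at 268 and 265 CPM in saline and 209 and 202 CPM in risperidone lanes. Levels of different genes are not set against each other here, since long genes give more intronic UMIs.

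Pairs of these genes were then counted in the same nucleus, after each glutamatergic nucleus deep enough was thinned to 2000 UMIs, so that all those counted had equal depth. The number of nuclei with UMIs of both genes was divided by the number that independent genes with the same shares would give. The ratio was highest on average for Tle4 and Foxp2, found together in 3102 nuclei, 2.13 to 2.88 times that number over the 4 lanes. Bcl11b met Foxp2 1.63 to 2.76 times and Fezf2 1.86 to 2.45 times as often. Cux2, by contrast, met Foxp2 only 0.505 and 0.480 times as often in saline and 0.284 and 0.237 times in risperidone lanes. With Bcl11b the Cux2 values were 0.484 and 0.476 in saline and 0.320 and 0.273 in risperidone lanes. Both pairs thus differed between the pools, as did the estimated share of other nuclei's RNA and the mix of subclasses. Thinning also left out 2622 and 1133 saline against 153 and 100 risperidone glutamatergic nuclei as too shallow. What these differences contribute to the ratios was not tested. Cux2 and Rorb met slightly more often than independent genes (1.22 to 1.27). These ratios describe the nuclei of 4 lanes, to all of which RNA of other nuclei was added.

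**Figure D2:**
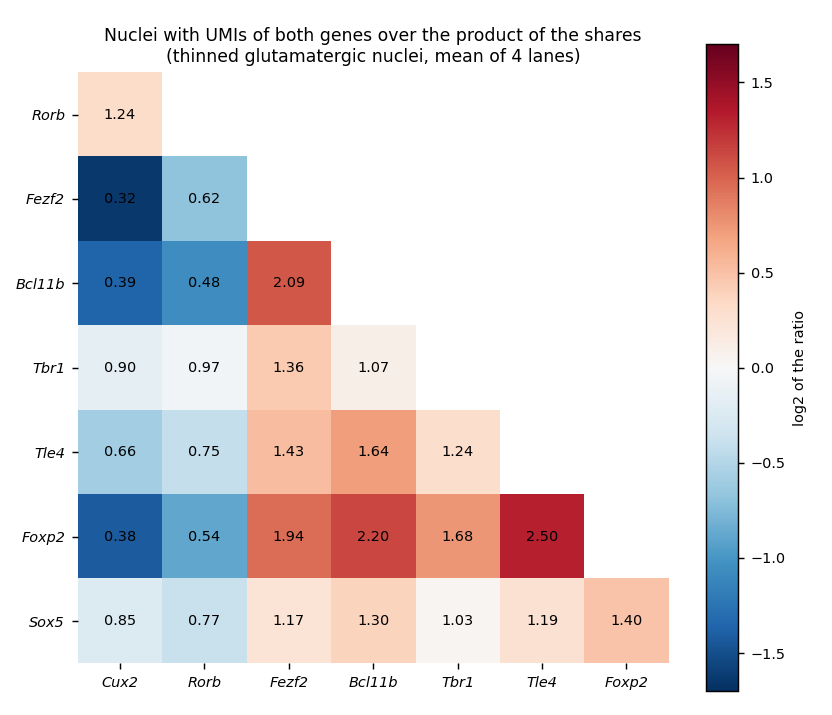
Glutamatergic nuclei with UMIs of both genes, divided by the product of the 2 shares (number in each square, mean of the 4 lanes; colour, log2 of that ratio). Tle4 with Foxp2 is the deepest red square at 2.499, and Cux2 with Fezf2, Foxp2 and Bcl11b are the deepest blue at 0.322, 0.377 and 0.388.

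Between the pools, Bcl11b was lower in the risperidone pool and 4 more of the 7 genes tested were lower with the lanes of the pools apart, by smaller amounts, in glutamatergic nuclei as a whole. Scaled by TMM (a scaling that sets the bulk of genes equal between lanes), Bcl11b stood at 154 and 152 CPM in the saline lanes and 75.6 and 77.0 CPM in the risperidone lanes, a log2 ratio of -1.002 (95% counting interval -1.03 to -0.97). The saline lanes differed from each other far less than from the risperidone lanes. Sox5 had 577 and 575 against 469 and 467 CPM (log2 -0.30) and Cux2 289 and 279.5 against 248 and 249.9 (-0.19). For Rorb, Tle4, Foxp2 and Tbr1 the log2 ratio was between -0.06 and 0.04. Fezf2, under 10 CPM, was left out. A gene was called when its log2 ratio reached 0.5 in size, its mean 10 CPM, and the 2 lanes of one pool both lay above those of the other. By this rule 1 of 7 genes tested was called, and 11.6% of all 7193 genes tested were, 7.28% in the lower direction. Among all called genes 37.2% were higher in the risperidone pool with this scaling and 60.9% with plain CPM. Lanes apart by any amount were common, with 47.2% of all genes lower and 42.6% higher in that way. The median of the 7 was -0.06, beside -0.02 for all genes. The mix of subclasses differed between the pools, and with the subclasses weighted equally the Bcl11b ratio was -0.68.

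The same rule within subclasses called 21 of 57 combinations of gene and subclass at 10 CPM or more, 17 lower and 4 higher in the risperidone pool. Shares called among all genes are given in either direction, then lower and higher in the risperidone pool. They were 12.1%, 6.72% and 5.40% in L2/3 IT, 9.30%, 4.74% and 4.57% in L4/5 IT, 13.4%, 8.07% and 5.35% in L5 IT, 17.4%, 10.6% and 6.82% in L5 ET, 21.6%, 13.0% and 8.65% in L5/6 NP, 11.4%, 6.61% and 4.78% in L6 CT, 19.2%, 10.0% and 9.12% in L6b and 16.4%, 8.84% and 7.57% in the claustrum-type nuclei. When classes were instead set from the marker UMIs of single nuclei, as planned, 7 of 56 combinations were called: Bcl11b lower in L2/3 IT, L5 IT, L5 ET and the claustrum-type nuclei, and Tle4 higher in L6b and the claustrum-type nuclei and Foxp2 in L6b. Bcl11b ratios were negative in all 8 subclasses there too, from -1.60 to -0.28. The 7 calls are 12.5% of the combinations, next to 14.8% of all gene and subclass combinations with those classes, so the 8 genes were not called more often than all genes there; with clusters the shares were 36.8% and 15.1%. When the UMIs expected from RNA of other nuclei were taken out, 13 of 43 were called, 30.2% next to 18.2% of all combinations. Of the 21, 10 had at least 1 lane in which that expected number reached the observed one, and only 8 were called both before and after the removal. Another 5 were called only after it. Cux2 in L2/3 IT, Rorb in L4/5 IT and Bcl11b in L6 CT were lower. Tle4 and Foxp2 in L5 ET were higher, with ratios of 0.86 and 0.68 against 0.11 and 0.19 before.

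**Figure D3:**
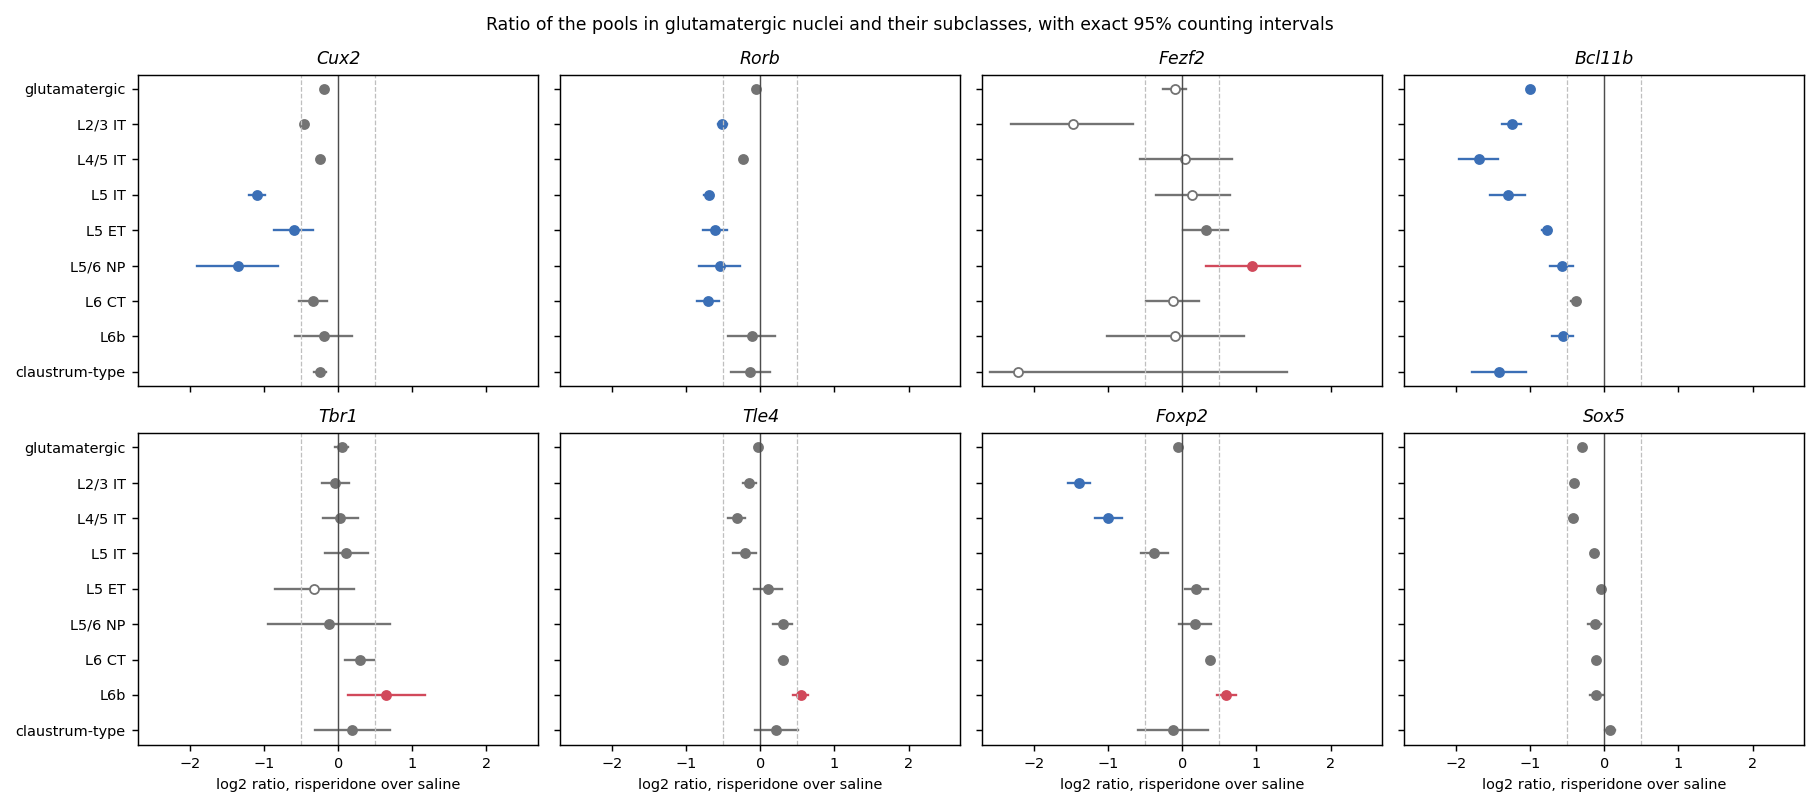
Log2 ratio of the risperidone to the saline pool (horizontal axis, TMM-scaled; bars, exact 95% counting intervals, ended at 2.6 in size) for glutamatergic nuclei and each subclass. Blue points were called lower, red points higher, grey points were not called, open points were under 10 CPM and dashed lines mark 0.5 in size. Bcl11b lies left of 0 in all 8 subclasses, whereas the red points are Fezf2 in L5/6 NP and Tbr1, Tle4 and Foxp2 in L6b.

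Bcl11b was lower, with the lanes of the pools apart, in 8 of 8 subclasses and was called in 7. Of 16 other settings, it was called in 16 in L5 ET, 14 in L6b and 11 in L5/6 NP, and in L4/5 IT in 11 of 15. At equal depth it was called in neither L6b nor L5/6 NP. In L5 ET, where the gene is highest, TMM-scaled levels were 568 and 542 CPM in the saline and 309.7 and 336 CPM in the risperidone lanes, a log2 ratio of -0.77 (-0.84 to -0.71). L5/6 NP nuclei had 440.3 and 438 against 286 and 302 CPM (log2 -0.58). In L6 CT the step was smaller, from 288 and 306 to 219 and 234 CPM (-0.39), and was not called. Lower levels were not limited to projection neurons. Striatal-type nuclei had 547 and 516 against 275 and 293 CPM (-0.89), and Lamp5 interneurons 349 and 368 against 255 and 247 (-0.52). Over 18 named classes, microglia left out for their 181 nuclei, the Bcl11b lanes were apart and lower in all 18. In the same way Cux2 was lower in 16, Sox5 in 15 and Rorb in 11, and higher in 0, 1 and 1. Foxp2 was lower in 9 and higher in 3, and Tle4 lower in 6 and higher in 8. Of 5547 genes at 10 CPM or more in all 18 classes, 3.68% were lower with the lanes apart in all 18. Of 6038 genes at that level in the 8 subclasses, 727 were lower in all of them with the lanes apart. Of the same 6038 genes 2.10% were called lower in at least 7. Among the 18 classes, Bcl11b UMIs expected from other nuclei's RNA exceeded those observed in every lane of L2/3 IT, L4/5 IT, L5 IT and oligodendrocytes. They also did so in oligodendrocyte precursors and mural or fibroblast nuclei, and in some lanes of astrocytes, Vip interneurons, endothelial and claustrum-type nuclei. Over all nuclei Bcl11b had 163 and 163 CPM in saline and 90.0 and 90.2 CPM in risperidone lanes. Those values also depend on the mix of classes, which differed between the pools. Striatal-type nuclei deep enough for thinning numbered 656 and 782 in saline and 430 and 419 in risperidone lanes. A further 217 and 72 against 19 and 7 were too shallow. What the mix contributes was not tested.

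With the UMIs expected from other nuclei removed, the Bcl11b difference was larger in L5 ET, L6 CT and striatal-type nuclei (levels left are plain CPM, ratios TMM-scaled). In L5 ET the levels left were 705 and 643 CPM in the saline and 367 and 377 CPM in the risperidone lanes (log2 -0.97), in L6 CT 351 and 376 against 269 and 270.4 (-0.56), and in striatal-type nuclei 756 and 696 against 348 and 377 (-1.09). In L2/3 IT, L4/5 IT and L5 IT nothing was left in either pool, so the called ratios of -1.25, -1.69 and -1.31 there are ratios of levels that RNA of other nuclei alone could give. Estimated RNA of other nuclei in L5 ET was 28.3 and 24.0% in the saline and 17.01 and 12.4% in the risperidone lanes.

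At equal depth the share of L5 ET nuclei with a Bcl11b UMI was 64.9 and 62.7% for saline lanes against 45.2 and 48.0% for risperidone lanes. The binomial intervals did not overlap, but they cover only the counting of nuclei within 1 pool per condition, not variation between pools. Without thinning the shares were 85.1 and 88.3% and 90.5 and 95.6% in nuclei that were deeper in the risperidone lanes, and ran in the other direction. Thinning left out 57 and 24 saline and 2 and 7 risperidone L5 ET nuclei. Thinned Bcl11b shares were 51.2 and 52.4% for saline against 44.8 and 46.9% for risperidone lanes in L5/6 NP. In L6b they were 40.1 and 39.1% against 31.5 and 32.8%, and the intervals overlapped in both subclasses. In L4/5 IT, where the gene was at the level of other nuclei's RNA, 3.58 and 4.11% and 1.26 and 0.922% of thinned nuclei had a UMI. Sox5 in the same thinned L5 ET nuclei was found in 84.3 and 82.4% and 87.0 and 88.1%, and in thinned L6 CT nuclei in 80.3 and 79.9% and 80.6 and 80.2%.

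**Figure D4:**
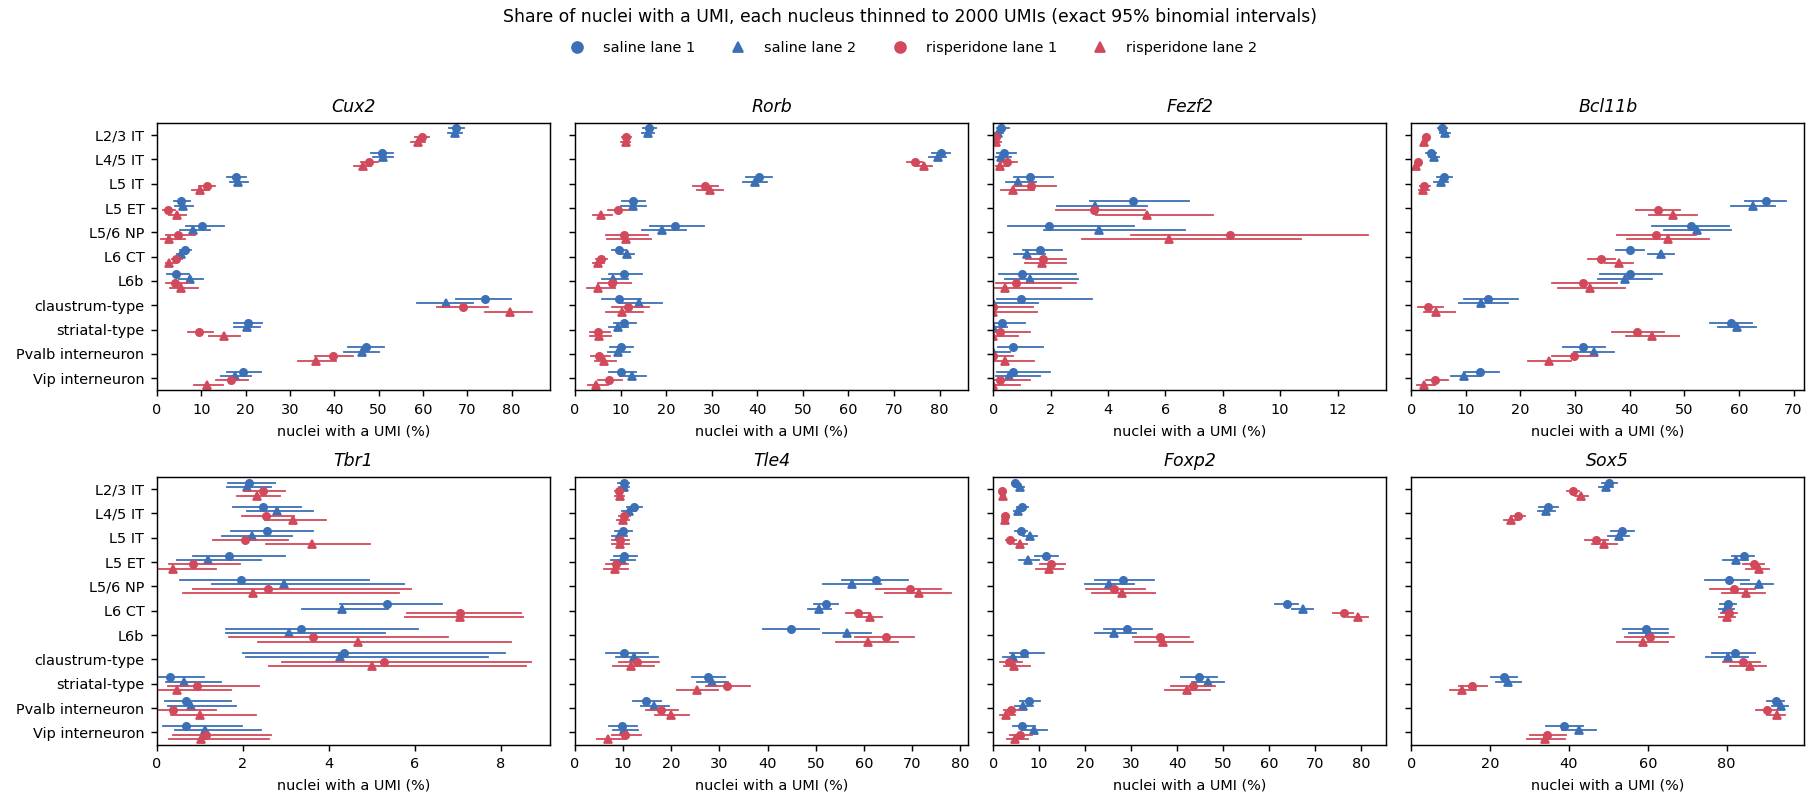
Share of nuclei with at least 1 UMI of each gene (horizontal axis, percent, ranges differ between panels) after thinning to 2000 UMIs, by class, 1 point per lane with its exact 95% binomial interval; colours and symbols are saline (blue) and risperidone (red), lanes 1 (circle) and 2 (triangle). Bcl11b is found in fewer L5 ET and striatal-type nuclei of the risperidone lanes, and Foxp2 in more L6 CT nuclei.

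In L6 CT, Foxp2 and Tle4 were higher with the lanes apart, under the threshold of 0.5. Foxp2 in L6 CT had 681 and 718 CPM in the saline and 873 and 939 CPM in the risperidone lanes (log2 0.38, 0.34 to 0.41), and was found in 63.8 and 67.3% and 76.2 and 79.4% of thinned nuclei (74.0 and 79.8% and 92.2 and 96.5% unthinned). In L2/3 IT, where Foxp2 was at the level of other nuclei's RNA, thinned shares were 4.77 and 5.84% and 1.92 and 2.12%. Tle4 in L6 CT had 407 and 407 against 469 and 527 CPM (0.30). Neither was called. With RNA of other nuclei removed, Foxp2 stood at 981 and 1038 against 1145 and 1141 plain CPM (TMM-scaled log2 0.05, scaled lanes overlapping) and Tle4 at 566 and 565 against 599 and 629 (-0.0049). The estimate of that RNA in L6 CT was 37.9 and 38.3% in the saline and 24.8 and 19.1% in the risperidone lanes.

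In L6b, a small subclass, Tbr1, Tle4 and Foxp2 were called higher. Foxp2 had 236 and 197 against 345 and 304 CPM (log2 0.60), Tle4 353 and 411 against 569 and 562 (0.54) and Tbr1 15.9 and 14.3 against 22.1 and 24.3 (0.64). After the removal the ratios were 0.47, 0.27 and 0.56, and the first 2 were no longer called. At equal depth Foxp2 was called in L6b, but Tbr1 and Tle4 were not. Tbr1 was found in 3.34 and 3.07% of thinned L6b nuclei in saline lanes against 3.63 and 4.68% in risperidone lanes, with overlapping intervals. Among nuclei called male the ratios were -0.41 for Tbr1 and -0.34 for Foxp2, in the other direction, and with single-nucleus classes Tbr1 in L6b was not called. Fezf2 in L5/6 NP had 15.6 and 20.2 against 38.0 and 32.6 CPM (log2 0.95, 0.32 to 1.59), and 0.75 after the removal. These rest on 34 UMIs in the saline and 64 in the risperidone lanes, and scaling alone moves the median of all genes by 0.12 (log2) in L5/6 NP.

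Cux2 and Rorb were lower in the subclasses where they are used as layer markers, by less than the threshold. Cux2 in L2/3 IT had 636 and 630.3 CPM in the saline and 464 and 457 CPM in the risperidone lanes (log2 -0.46), and Rorb in L4/5 IT 1115 and 1169 against 951 and 985.2 (-0.24). At equal depth Cux2 was found in 67.5 and 67.3% of L2/3 IT nuclei in saline lanes against 59.8 and 58.9% in risperidone lanes, next to 6.31 and 5.47% and 4.39 and 2.77% in L6 CT. Unthinned, the L2/3 IT shares were 80.6 and 86.4% and 90.2 and 94.4%. Different clusters held most L2/3 IT nuclei of each pool, as given above. With RNA of other nuclei removed both passed the threshold, with ratios of -0.66 and -0.54. Cux2 in claustrum-type nuclei, its highest subclass, went from -0.25 to -0.09 with the removal. The estimate of that RNA there was 35.8 and 32.7% in saline and 43.7 and 41.6% in risperidone lanes. It was thus higher in the risperidone lanes, unlike that for glutamatergic nuclei as a whole. In L5 IT both genes were called lower: Cux2 from 143 and 128 to 62.2 and 63.9 CPM (-1.09) and Rorb from 377 and 362 to 218 and 235 CPM (-0.70). With classes of single nuclei neither was called in L5 IT, and the Cux2 ratio was -0.20. The Rorb ratio was -0.28 at Louvain resolution 1.0 and was not called. Of 16 other settings, Cux2 in L5 IT was called in 15 and Rorb in 13. Cux2 was also called lower in L5 ET (-0.60) and L5/6 NP (-1.35), at levels that RNA of other nuclei alone could give. Rorb was also called lower in L2/3 IT (-0.51), L5 ET (-0.61), L5/6 NP (-0.55) and L6 CT (-0.70). That RNA alone could give the Rorb level in every lane of L6 CT and at least 1 lane of L5 ET. After the removal Rorb was still called in L2/3 IT but not in L5/6 NP (-0.32). Foxp2 was called lower in L2/3 IT and L4/5 IT at levels that RNA of other nuclei alone could give. Sox5 was called in none of the 8 subclasses, and in L5 ET differed by -0.04. With RNA of other nuclei removed its ratio in L4/5 IT turned from -0.42 to 0.33, and that in L5 ET was -0.20.

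**Figure D5:**
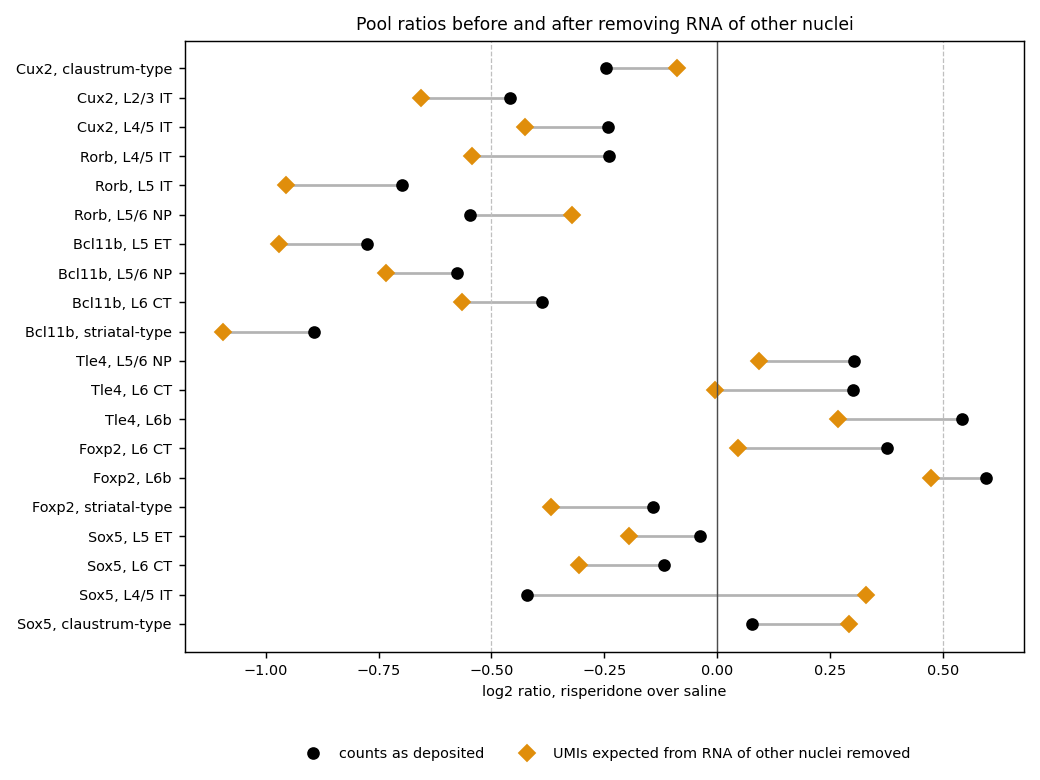
Log2 ratio of the risperidone to the saline pool for combinations of gene and class, from the counts as deposited (black circles) and after the UMIs expected from RNA of other nuclei were taken out (orange diamonds); dashed lines mark 0.5 in size. The 4 Bcl11b ratios move further below 0, Cux2 in claustrum-type and Rorb in L5/6 NP move towards 0, Foxp2 and Tle4 in L6 CT move to about 0, and Sox5 in L4/5 IT changes sign.

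Other transcription factors of projection neurons, a list of 33 such as Cux1, Neurod6 and Nfia, were read in the same way in glutamatergic nuclei. Of the 27 at 10 CPM or more, 4 were called lower and 0 higher, next to 7.28% and 4.31% of all genes. With plain CPM 1 was called, and with subclasses weighted equally 2. Ldb2, a co-factor of LIM-domain proteins, had 648 and 640.3 CPM in the saline and 422 and 435 CPM in the risperidone lanes (log2 -0.59). Nfix, of the nuclear factor I family, had 185 and 185 against 127 and 128 (-0.53), Nr4a3, an activity-induced nuclear receptor, 32.1 and 30.1 against 21.2 and 21.9 (-0.52), and Pou3f3, a POU-domain gene of upper layers, 29.3 and 28.5 against 20.2 and 20.1 (-0.52). All 4 ratios were smaller in size than that of Bcl11b. The median of the 27 was -0.22, beside -0.02 for all genes, with 18 lower and 7 higher by lanes apart, next to 47.2% and 42.6% of all genes.

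Genes with the most similar pattern over 19 classes were taken by Pearson's r of log2(CPM + 1), without a test, since classes share libraries and depth. Cux2 was most like its paralog Cux1 (r = 0.78), Tbr1 like Slc17a7 (0.91), the vesicular glutamate transporter that is itself a class marker, and Tle4 and Foxp2 were among each other's nearest 3 (0.76). The nearest genes were Hgf for Rorb (0.88), Myl4 for Fezf2 (0.84), Hs6st2 for Bcl11b (0.78) and Cd47 for Tle4 (0.81). For Sox5 it was Sox5os4 (0.81), an antisense RNA gene inside Sox5 at 144720911 to 144759883 on chromosome 6. Sox5os4 had TMM-scaled levels of 1.07 and 1.03 CPM in the saline and 3.46 and 2.92 CPM in the risperidone lanes of glutamatergic nuclei, a log2 ratio of 1.59, while that of Sox5 was -0.30. The other antisense genes detected at Sox5 and Cux2, all under 1 CPM on average, were higher too, with log2 ratios from 0.91 to 2.74. The 2.74 belongs to Sox5os1, with 0.0163 and 0 plain CPM in saline and 0.0344 and 0.0636 in risperidone lanes. It rests on very few UMIs, and without it the highest ratio was 1.96. Whether the counting kept the strand was not examined, so reads of the pair cannot be fully told apart.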

How the data were processed

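The authors counted UMIs per gene and nucleus with Cell Ranger 8.0.1 on mm10, intronic reads included, and deposited whole-number counts, 1 matrix per lane. Here a nucleus was kept from 500 genes upward and up to 5% of mitochondrial UMIs, doublet-like nuclei were removed by simulated doublets, and the rest were clustered on 2000 variable genes without the 8 genes and 33 other transcription factors. The planned classes, from marker UMIs of single nuclei, became an alternative after the data were seen, and the naming thresholds for clusters were also set then. UMIs were summed per class and lane. TMM factors were computed by edgeR's method and were checked against edgeR 4.0.16 on the glutamatergic sums. No test was run, since each condition is 1 pool. Intervals are exact at 95% (Poisson, conditional binomial, Clopper-Pearson) and cover counting error only. The genes and lists were chosen with earlier results of these data known. All 8 genes were named, with other transcription factors past the size rule (at most 8), the 3 genes most alike in pattern, and overlapping opposite-strand genes of at least 1 CPM. Scripts used Python 3.11.15, numpy 2.4.6, scipy 1.17.1, pandas 2.3.3 and igraph 0.11.9, and the ratio step was tested on simulated data. Positions are mm10 (GRCm38).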

Additional observations from a re-analysis of the deposited data

Results flagged for a closer look

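None of the differences given here was tested, and each was singled out because both risperidone lanes moved one way in one group of nuclei and the opposite way in another. The log2 ratio of the risperidone to the saline pool was 0.86 higher in L6b than in L4/5 IT for Tle4, 1.99 higher in L6b than in L2/3 IT for Foxp2, and 0.50 higher in claustrum-type than in L4/5 IT nuclei for Sox5. Foxp2 in L2/3 IT was at a level that RNA of other nuclei alone could give. With that RNA removed, Tle4 had 0.27 in L6b and 0.0049 in L4/5 IT, and Sox5 had 0.29 in claustrum-type and 0.33 in L4/5 IT nuclei, so neither pair kept opposite signs. In claustrum-type nuclei the estimate of that RNA was 35.8 and 32.7% in saline lanes and higher, 43.7 and 41.6%, in risperidone lanes.

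No sex was called for 43.1 and 40.4% of glutamatergic nuclei in saline and 22.6 and 22.5% in risperidone lanes. The calls were also uneven, with 5759 and 6261 female against 2922 and 3100 male glutamatergic nuclei in saline lanes. In risperidone lanes they were 7517 and 6788 female against 3088 and 2972 male, so values for nuclei called male rest on fewer nuclei. Between nuclei called female and male, the ratio of Cux2 in claustrum-type nuclei differed by 0.76 (0.10 in female, -0.66 in male). For Tbr1 it differed by 0.34 in L2/3 IT (0.13 and -0.21) and by -2.35 in L5/6 NP (-0.70 and 1.65), the latter from few UMIs. For Tle4 it differed by 0.39 in L2/3 IT (0.10 and -0.30) and by 0.77 in claustrum-type nuclei (0.41 and -0.37). For Sox5 it differed by -0.68 in L6b (-0.18 and 0.50) and by 0.37 in claustrum-type nuclei (0.23 and -0.15).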

How the results depend on the processing

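No paired analysis was possible because the lanes are technical runs of 1 pool per condition and the results come from no test. Bcl11b in glutamatergic nuclei was called in 17 of 17 settings, with log2 ratios from -1.08 (thinned) to -0.68 (subclasses weighted equally). The 21 called combinations of gene and subclass became 7 with classes of single nuclei, the rule planned first, and 13 with RNA of other nuclei removed; without 1 lane they ranged from 18 to 20. The 4 other transcription factors called became 1 with plain CPM and 2 with subclasses weighted equally, and ranged from 3 to 5 without 1 lane; the genes called of the 8 stayed at 1 in those fits. Among called combinations, signs reversed for Cux2 in L5 ET (0.28), Tbr1 in L6b (-0.41) and Foxp2 in L6b (-0.34) among nuclei called male, and for Rorb in L5 ET (0.66) with RNA of other nuclei removed. Of combinations not called, that removal also turned Sox5 in L4/5 IT (0.33), Tle4 in L2/3 IT (0.12), L4/5 IT (0.0049), L5 IT (0.31) and L6 CT (-0.0049), and Tbr1 in L4/5 IT (-0.10). The cause was not tested. The highest subclass was the same for 8 of 8 genes with thinned nuclei, RNA of other nuclei removed, Louvain resolution 1.0 and each lane left out, and for 6 with classes of single nuclei. With the latter, Fezf2 was highest in L5 ET and Tle4 in L6 CT, in place of L5/6 NP. Other settings were not run for the highest subclass. Depth limits Fezf2, which was under 10 CPM in glutamatergic nuclei.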
